A study of Mus musculus with 6 samples.

Results

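The stretch described here is a 2 Mb interval of mouse chromosome 10, chr10:79000001-81000000 on the mm9 build, in which the deposited lists of N6-methyladenosine (m6A) enrichment are crowded. Its peaks were chosen by the position of their summit, and the stretch from 79758000 to 79783000, assigned to the gene Apc2, was left out. Overlapping peaks of the 3 lists (1 base was enough) were joined into regions, which gave 300 regions of the 43377 in the whole series. The interval had been picked for its many regions, so its density is given as a description with no test.

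Whole mouse brain gave polyadenylated RNA for 6 libraries: 3 were pulled down with an m6A antibody (m6A IP 1, 2 and 3, below also libraries 1, 2 and 3), and 3 were inputs with no antibody. The labels give no genotype, treatment, age or strain, and they do not say whether the replicates came from separate animals, so their spread may be technical. Whole brain pools all of its cell types, and fewer cells of a type and less RNA per cell cannot be told apart in it. The IP libraries kept 5676427 to 6493926 tags after duplicate removal and the inputs 7185922 to 11589632, and the list of m6A IP 3 was the shortest of the 3.

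m6A is a methyl mark on adenosines within messenger RNA. It is deposited by a nuclear methyltransferase complex whose catalytic subunit is METTL3, removed by demethylases such as ALKBH5, and bound by reader proteins of the YTH family that affect the splicing, translation and decay of the RNA. In mammalian transcripts it is known to lie mainly in long internal exons and around stop codons. In m6A-seq, RNA fragments bound by the antibody are sequenced beside input, so a gene must be transcribed to yield a peak at all, and a stretch with many expressed genes can hold many peaks.

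The peak lists carried neither gene names nor strand, and the annotation at hand was of another build, so no region is assigned to a gene here and no sequence is shown. RefSeq's annotation of GRCm38.p6 was used only for gene names, their order and a count of neighbours. It places 106 of the 1001 protein-coding genes of chromosome 10 with their start within 1 Mb of the start of Apc2, so the name gene-dense holds around that gene in that build. The nearest protein-coding genes on one side are Rps15, a protein of the small ribosomal subunit, then Dazap1, an RNA-binding protein, Gamt, an enzyme of creatine synthesis, and Ndufs7, a subunit of respiratory complex I. Farther out on that side stand Efna2, an ephrin ligand of axon guidance, Cirbp, an RNA-binding protein induced by cold, and Stk11, a kinase that activates AMPK. On the other side follow Pcsk4, a proprotein convertase, Reep6, Plk5, a polo-like kinase, and Mex3d, an RNA-binding protein. Next come Mbd3, a subunit of the NuRD complex, Uqcr11, a subunit of respiratory complex III, Tcf3, a helix-loop-helix transcription factor, and Onecut3, a homeodomain factor. Which of these RNAs carried the enrichment was not tested.

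Peaks were about 12 times as dense in the interval as on the rest of the chromosome. The interval held 233, 245 and 176 peaks in libraries 1, 2 and 3, and the rest of chromosome 10 held 1284, 1234 and 915. Per Mb this came to 118, 124 and 89.1 peaks in the interval and 10.03, 9.64 and 7.15 on the rest, a ratio of 12.4 ± 0.560 (SD, n = 3 libraries). The ratio was close to the same in each library although the lists differed in length. Of the 64 windows of 2 Mb into which the chromosome was cut in step with the interval, the interval had the most peaks in the 3 lists together, 654, and the next had 231. The median of the other 63 windows was 44 peaks.

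Regions were fewer on both sides of the interval than inside it. The 1 Mb before the interval held 13 regions, the first Mb of the interval 134, the second Mb 166, and the 1 Mb after it 47. The rest of chromosome 10 held 13.2 regions per Mb, so the 1 Mb after the interval was still above that level. At the start, the last region outside lay 10.2 kb before the border, was found in 2 libraries and had a mean pileup of 15 tags, and the first inside lay 3.03 kb past it, in 1 library with 16 tags. At the end, the last region inside lay 6.49 kb before the border and the first outside 23.98 kb past it, each in 1 library with 28 and 31 tags. No merged region crossed a border. At the left-out stretch the nearest members were a region of 1 library ending 1.54 kb before it and a region of all 3 libraries starting 81 bases past it, so the latter lies almost against the part left out.

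**Figure D1:**
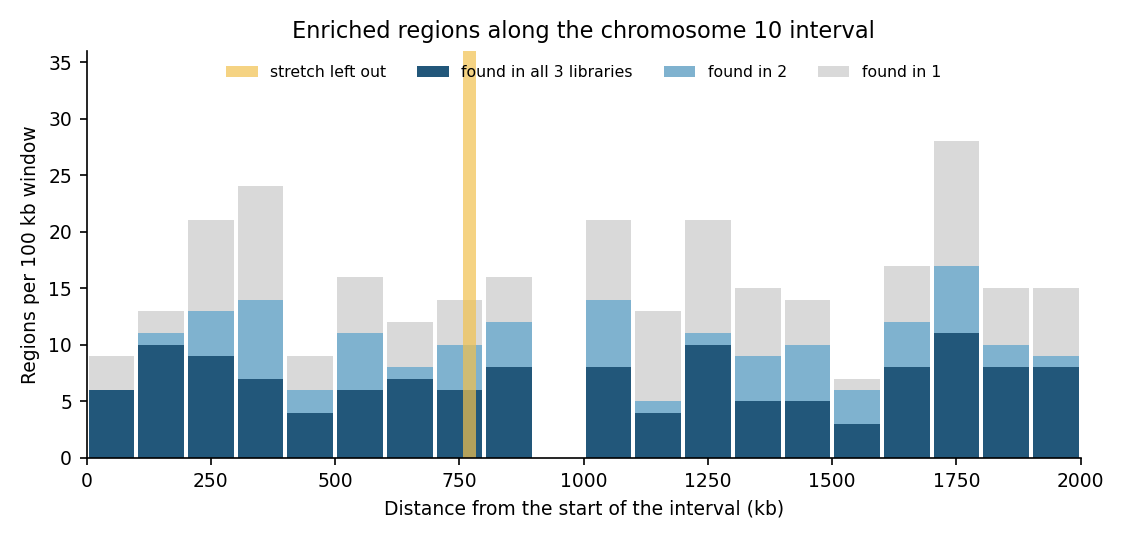
Number of merged regions in each of 20 windows of 100 kb, plotted by distance from the start of the interval in kb, with the bars split by the number of libraries in which a region was found; the yellow band is the stretch left out. The windows hold 0 to 28 regions, and the tenth is empty.

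Along the interval, regions were spread over all but 1 of the 20 windows of 100 kb. A window held 0 to 28 regions with a median of 15. The 3 with the most were 80700001 to 80800000 with 28 regions, 79300001 to 79400000 with 24, and 79200001 to 79300000 with 21, and 11, 7 and 9 of these were found in all 3 libraries. The windows 80000001 to 80100000 and 80200001 to 80300000 also held 21, and the first by coordinate was named. Number and height did not go together in them: the median pileup of the regions found in all 3 libraries was 33, 34 and 32 tags in libraries 1, 2 and 3 in the first, but 16, 17 and 14 in the second. The 3 windows with the fewest were 79900001 to 80000000 with 0 regions, 80500001 to 80600000 with 7, and 79000001 to 79100000 with 9, a number shared by 79400001 to 79500000.

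The empty window belongs to a stretch of 133 kb without a peak in any list, chr10:79876068-80009092. It was the longest such stretch of the interval, and the next were 62.8 kb from 79012018 to 79074820 and 45.1 kb from 80415668 to 80460758. It sits between crowded windows: the window 79800001 to 79900000 before it held 16 regions and the window 80000001 to 80100000 after it 21, with 8 found in all 3 libraries in each. A stretch with no peak may hold RNA without enrichment or no RNA at all, and the lists do not separate these.

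Of the 300 regions, 133 were found in all 3 libraries, 44.3% (Wilson 95% interval 38.8 to 49.99, counting error only). The same share was 36.6% of 1691 regions on the rest of chromosome 10 (interval 34.3 to 38.9) and 38.6% of the regions of the whole lists. A further 61 were found in 2 libraries, 20.3%, against 23.4% on the rest of chromosome 10 and 22.6% of the whole lists. Libraries 1 and 2 shared 45 of these 61, while 9 were common to libraries 1 and 3 and 7 to libraries 2 and 3. Regions of only libraries 1 and 2 made up 15% of the interval, 15.6% of the rest and 15.2% of the whole lists, so that share was nearly the same in each. A single library held 106 regions, 35.3%, against 39.98% on the rest. They came from m6A IP 2 in 55 cases, from m6A IP 1 in 36 and from m6A IP 3 in 15. On the rest of the chromosome the counts for the same libraries were 254, 305 and 117, so the shortest list gave the fewest in both and the library with the most differed.

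Per library, the share of peaks lying in regions found in all 3 was higher in the interval each time. It was 61.4%, 56.3% and 82.4% in libraries 1, 2 and 3 in the interval, and 50.4%, 52.4% and 72.6% on the rest of the chromosome. The interval exceeded the rest in 3 of 3 libraries, by 8.23 ± 3.80 percentage points (SD, n = 3), which is larger than the spread of the difference. An exact permutation test of the within-library difference, two-sided with signs flipped, gave p = 0.25, which is the smallest p that 3 libraries allow. The same p, raw and after Benjamini-Hochberg adjustment over the 6 measures compared, holds for the other 5 of these measures below, so none of them could reach 0.05. The size of this difference varied with the setting: it was 4.18, 8.12 and 4.97 points without m6A IP 1, 2 and 3. Recurrence there means both of the remaining libraries, so these runs change the measure as well as the libraries. With each list cut by q-value to the length of the shortest, the difference was 14.2 points.

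Height moved with this share. Peaks with a pileup under 15 tags lay in regions of all 3 libraries in 37.8% ± 14.2 of cases in the interval (SD, n = 3) and 36.9% ± 11.9 on the rest. At 15 to 24 tags the shares were 63.0% ± 14.9 and 62.2% ± 14.1, and at 25 to 34 tags 76.0% ± 14 and 78.7% ± 12.3. At 35 tags or more they were 82.9% ± 15.2 and 78.9% ± 17.9. Within libraries, the interval was lower in 3 of 3 at 25 to 34 tags, with a difference of -2.76 ± 1.80 points (SD, n = 3), and higher in 3 of 3 at 35 tags or more, by 4.04 ± 2.83, while in the lower classes it was higher in 2 of 3. Weighted over the classes, the difference was 1.74, -0.82 and 1.36 percentage points in libraries 1, 2 and 3, a mean of 0.76 ± 1.38 (SD, n = 3; exact permutation p = 0.5). The difference over all peaks was 8.23 points, and the weighted one at equal height was within the spread between libraries, with classes of opposite sign.

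**Figure D2:**
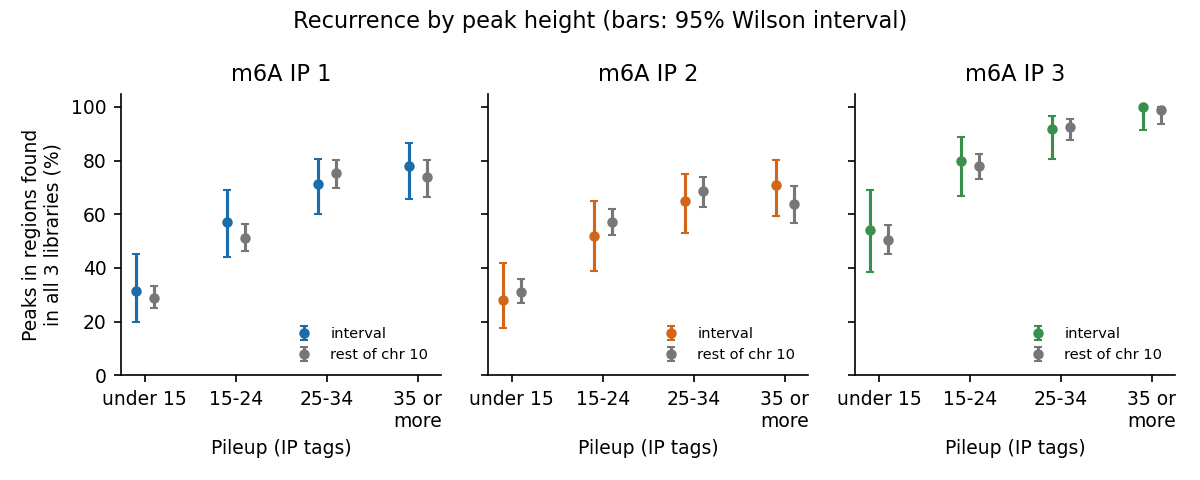
Share of peaks that lie in regions found in all 3 libraries, in percent, by pileup class in IP tags, for the interval (coloured) and the rest of chromosome 10 (grey) in each library; bars are 95% Wilson intervals. The share climbs with pileup in the interval, and the Wilson intervals of the 2 sets overlap in every class.

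Peaks of the interval stood higher than those of the rest of the chromosome, over a higher input. The pileup is the number of IP tags stacked over a base of the peak. Its median was 26, 27 and 25 tags in libraries 1, 2 and 3 in the interval and 18, 20 and 18 on the rest, so the 2 sets of libraries did not overlap. The difference was 7.33 ± 0.577 tags (SD, n = 3), in 3 of 3 libraries. A median of 26 tags has a 95% exact Poisson interval of 16.98 to 38.1, so a single peak is known far less well than the median. The local input background, the scaled input tags expected at the summit, had medians of 4.01, 4.48 and 4.40 tags in the interval and 2.29, 3.36 and 2.64 on the rest, a difference of 1.53 ± 0.358 tags. Of the 35 windows of 2 Mb with at least 20 regions, the interval held rank 3 by pileup and rank 8 by background, so its height was not beyond that of every other stretch of the chromosome. By the share of regions found in all 3 libraries and by peak length it held rank 11 each, and by fold rank 25.

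Pileups of 40 tags or more were commoner in the interval than on the rest, but few peaks passed 50 tags in either. Of the peaks of the interval, 15.02%, 19.2% and 14.2% had at least 40 tags in libraries 1, 2 and 3, against 6.07%, 7.94% and 4.26% on the rest of the chromosome. Above 50 tags there was 1 peak per library, with 55, 60 and 54 tags. The rest held 6, 6 and 2 such peaks among 1284, 1234 and 915, and its highest had 69, 81 and 54 tags. These counts are too few to compare shares above 50 tags. Since 1 tag was kept per position and tags were extended to 50 bases, 1 strand can stack at most 50 tags, which bounds how far the strongest regions can differ in height.

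Single peaks were slightly longer in the interval. The median length was 109, 107 and 97.5 bases in libraries 1, 2 and 3, against 99, 98 and 93 bases on the rest, a difference of 7.83 ± 2.93 bases (SD, n = 3) in 3 of 3 libraries. The longest single peak measured 1231, 1351 and 722 bases in the 3 libraries. Merged regions found in all 3 libraries had a median length of 204 bases (quartiles 127 and 315) in the interval and 184 bases (123 and 267) on the rest, and 11 of 133 exceeded 500 bases (8.27%), against 4.20% on the rest.

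The fold enrichment, which the authors computed as IP pileup over local input with 1 added to each, was a little lower in the interval. Its median was 4.64, 4.37 and 4.41 in libraries 1, 2 and 3, against 4.84, 4.59 and 4.58 on the rest, a difference of -0.20 ± 0.0235 (SD, n = 3) with the interval lower in 3 of 3 libraries. That order turned round when only peaks with a fold of at least 4 were kept, where the interval was higher by 0.14. The background moves with this result: among peaks with a whole number of input tags (counted before scaling), 45.2%, 59.1% and 39.7% had at least 9 tags in the interval, against 31.2%, 47.3% and 23.3% on the rest.

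**Figure D3:**
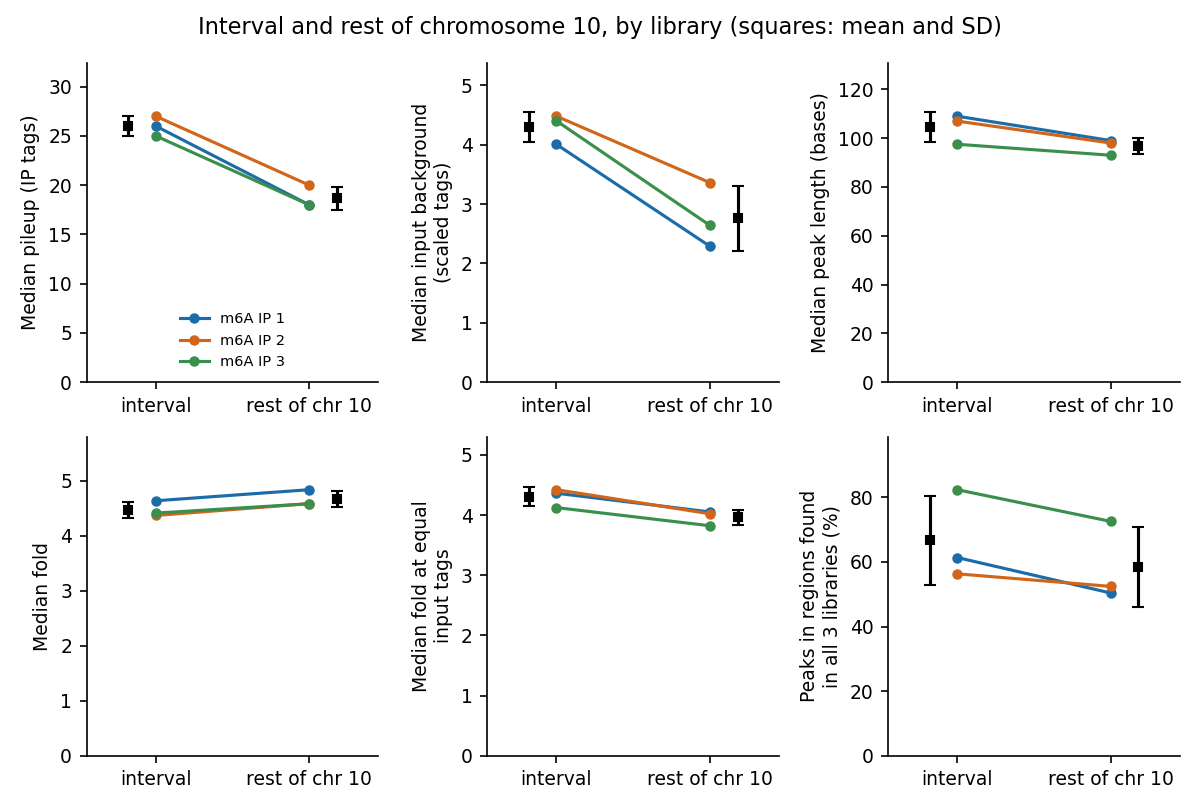
The 6 measures compared, in the interval and on the rest of chromosome 10, with lines joining the values of 1 library and black squares for the mean and SD over the 3 libraries; every axis starts at 0. Pileup, background, length and recurrence are higher in the interval in each library, the fold is lower, and the fold at equal input tags is higher.

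Set against peaks with the same number of input tags, the fold of the interval was higher, not lower. At equal input the fold follows from the pileup, so this result is not independent of the greater height given above. Over classes of input tags weighted by the peaks of the interval, the median fold was 4.36, 4.42 and 4.12 in libraries 1, 2 and 3 in the interval and 4.05, 4.02 and 3.82 on the rest, a difference of 0.34 ± 0.0546 (SD, n = 3) in 3 of 3 libraries. The interval was higher in 3 of 3 libraries in each class from 3 to 16 input tags, and in no other class. At 3 to 4 input tags the medians were 5.45, 7.09 and 5.86 in the interval and 5.17, 5.57 and 4.67 on the rest, and at 5 to 8 tags 4.49, 5.79 and 4.04 against 4.22, 4.47 and 3.70. At 9 to 16 tags they were 3.62, 3.62 and 3.04 against 3.18, 3.50 and 2.81. At 17 to 32 tags the order differed between libraries, with 2.32, 2.77 and 2.07 in the interval and 2.40, 2.70 and 2.17 on the rest. At 2 tags, with 10, 12 and 10 peaks in the interval, they were 6.93, 5.42 and 5.98 against 5.54, 6.13 and 5.07, again with no single order. At 1 tag, where the interval had only 15, 7 and 12 peaks, it was level in m6A IP 1 and lower in the other 2 libraries.

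**Figure D4:**
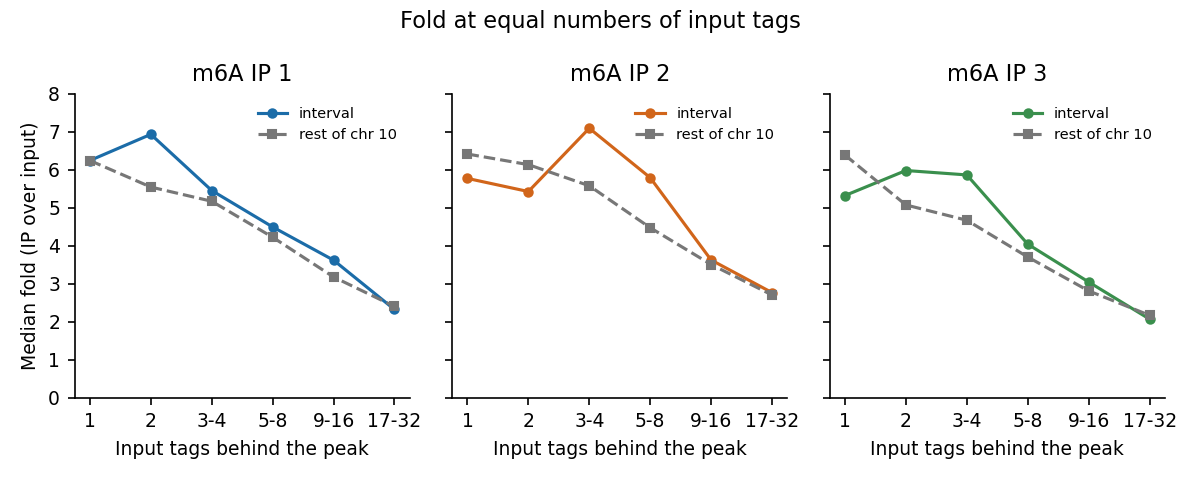
Median fold of peaks by the number of input tags behind them, for the interval (solid) and the rest of chromosome 10 (dashed), with 1 panel per library. From 3 to 16 tags the interval lies above the rest in each library, and at 17 to 32 tags the lines meet.

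The first and the second Mb of the interval differed in fold and input. This split was made after the data were seen. In the first Mb the median fold of the peaks was 5.08, 4.94 and 4.86 in libraries 1, 2 and 3, and in the second Mb 4.33, 4.14 and 4.06, lower by 0.78 ± 0.0273 (SD, n = 3) in 3 of 3 libraries. The input background ran the other way, with medians of 3.04, 2.80 and 3.52 tags in the first Mb and 5.34, 6.02 and 5.33 in the second. Median pileups were 23.5, 25 and 23 tags and then 29, 30 and 25. Exact permutation tests again gave p = 0.25 for all 3 measures. Against the rest of the chromosome the fold was higher by 0.29 in the first Mb and lower by 0.49 in the second, so the fold below that of the rest was seen in the second Mb and not in the first. At equal input tags both were higher than the rest, by 0.39 and 0.29. The mean difference in background from the rest was 0.36 tags in the first Mb (exact permutation p = 0.5) and 2.80 tags in the second. In the first Mb the background of m6A IP 2 lay below that of the rest, 2.80 against 3.36 tags. The higher input of the interval was thus mostly that of its second Mb.

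**Figure D5:**
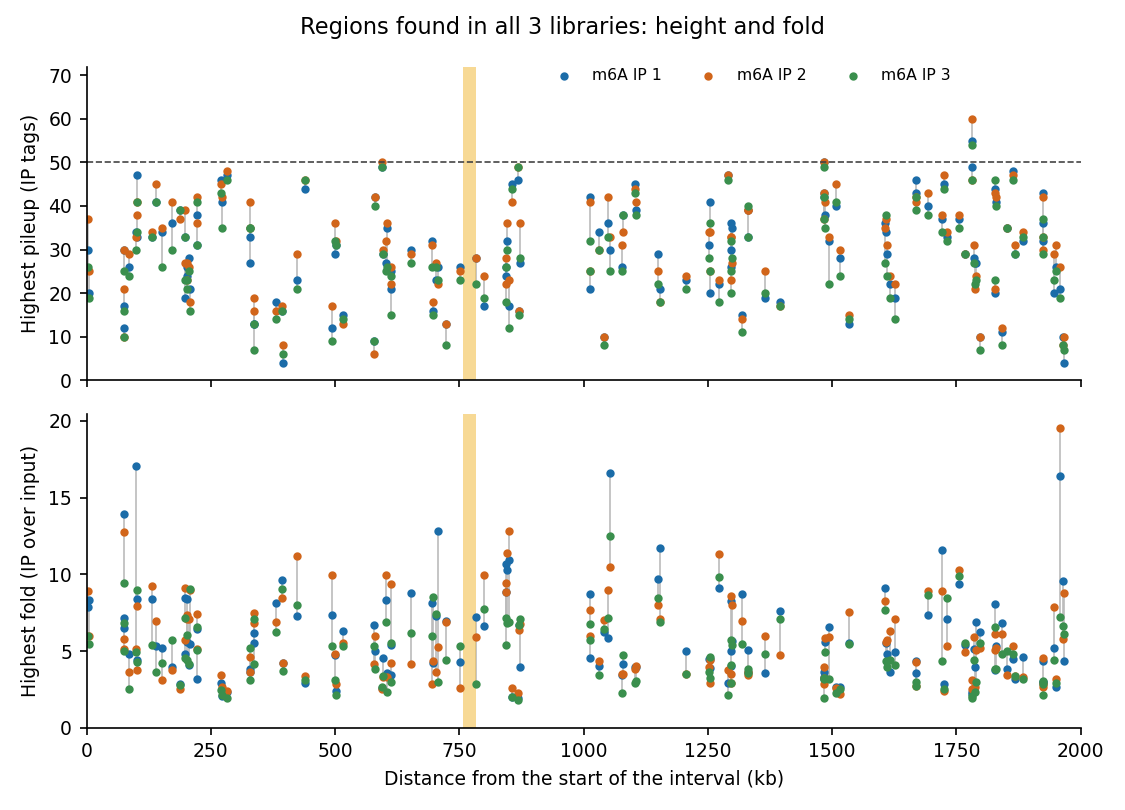
Highest pileup in IP tags (top) and highest fold (bottom) of each of the 133 regions found in all 3 libraries, by distance from the start of the interval in kb; points are libraries, grey lines span the 3 values of a region, the dashed line marks 50 tags and the yellow band the stretch left out. Pileups of a region lie close together, and the widest spans are in the fold.

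Neighbouring regions were close, as their density requires. The median gap between regions found in all 3 libraries was 7161 bases (quartiles 996 and 17962), and on the rest of the chromosome 41639 bases (3458 and 183510). Gaps of over 50 kb made up 5.34% of the gaps in the interval and 46.5% on the rest. The share with another such region within 1000 bases differed much less: it was 58 of 133 regions, 43.6% (Wilson 95% interval 35.5 to 52.1), against 33.3% (29.7 to 37.1) on the rest. Gaps under 10 kb made up 58.8% of the gaps in the interval and 30.8% on the rest. Its regions formed 25 clusters with gaps of at most 1000 bases, of which 6 had at least 3 regions and none more than 4, and 75 regions stood alone. The most regions in a cluster on the rest of the chromosome was also 4.

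The clusters with the most regions were unlike in height and fold. On chr10:80295779-80298683, 4 regions lay within 2905 bases at mean folds of 3.48 to 7.53 and mean pileups of 23 to 33.7 tags. On chr10:80482624-80485191, 4 regions lay within 2568 bases at folds of 2.80 to 5.47 and pileups of 38 to 49.7 tags, over a mean background of 11.9 tags. Another 4 clusters held 3 regions. The first of them by coordinate, chr10:79074821-79075881, had 3 regions within 1061 bases and a step in height between neighbours. Its first region had 12, 10 and 10 tags in libraries 1, 2 and 3, the middle one 17, 21 and 16, and the last 30, 30 and 25. Each library ranked these 3 regions alike by pileup. Whether the caller split 1 enriched stretch into such neighbours was not tested.

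The 5 regions with the highest mean pileup, among those found in all 3 libraries, mostly had high input and low folds. On chr10:80781480-80781818 the pileups were 55, 60 and 54 tags in libraries 1, 2 and 3, and the folds 2.34, 3.13 and 2.07. It was the only region of the interval with a mean above 50 tags. Next was chr10:80483482-80483885, with 50, 50 and 49 tags and folds of 3.65, 3.93 and 3.17. The third, chr10:79593605-79594955, had 49, 50 and 49 tags. It was also the longest region, with 1351 bases, made of 2, 1 and 3 peaks in the 3 libraries. Its highest folds of 2.61, 2.54 and 2.66 had the lowest coefficient of variation among the regions found in all 3 libraries, 2.21%. In libraries 1 and 3, with more than 1 peak, its highest fold, pileup and background did not all belong to the same peak. The small variation may thus set unlike peaks side by side. On chr10:79866921-79867024 a short region of 104 bases had 46, 49 and 49 tags and the lowest mean fold among the regions found in all 3 libraries, 2.01 ± 0.213 (SD, n = 3). The fifth, chr10:79281815-79282272, had 47, 48 and 46 tags and a fold of 2.22. It shared its mean of 47 tags with 2 other regions and was named for its lower coordinate: chr10:80781014-80781179 had a mean fold of 2.25, but chr10:80863057-80863791 one of 4.87 over a background of 8.91 tags. The mean background of the 5 lay between 13.2 and 23.5 tags, and the median over the 133 regions was 4.73.

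Regions picked for high fold were lower in height and had little input. The fold divides by the input, so picking by fold favours low input. A peak of low fold is called only with many tags. Both links thus follow in part from the choice of regions. The highest mean fold, 14.4 ± 6.39 (SD, n = 3), was on chr10:80958881-80959042, with 21, 26 and 19 tags over 0.343, 0.381 and 1.76 tags of background in libraries 1, 2 and 3. Its folds of 16.4, 19.6 and 7.24 set m6A IP 3 apart from the other 2. Next came chr10:80052927-80053039 with folds of 16.6, 10.5 and 12.5, and chr10:79075480-79075881, the last region of the cluster with rising pileups, with 13.96, 12.8 and 9.42. The others were chr10:79849665-79849858 at 10.2 ± 3.03 and chr10:80271280-80271428 at 10.1 ± 1.13. Among the regions found in all 3 libraries these 5 were the only ones with a mean fold of at least 10, or 3.76% of 133, against 3.88% on the rest. The 5 with the lowest mean fold, at 2.01 to 2.30, had pileups of 39.3 to 48 tags, and 2 of them stood among the 5 named for their pileup, with 1 more, chr10:80781014-80781179, tied at 47 tags for the last of those places.

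The long regions after the first were of moderate fold. On chr10:80297556-80298683, a member of the first cluster, 1128 bases had folds of 5.68, 8.02 and 5.37 and pileups of 35, 27 and 28 tags, and the stretch was called as 1, 2 and 3 peaks in the 3 libraries. On chr10:80863057-80863791, 735 bases were 1 peak in each library, with 48, 47 and 46 tags and folds of 4.49, 5.33 and 4.79. On chr10:80012104-80012831, the first region of all 3 libraries past the empty stretch, 728 bases had folds of 8.72, 7.66 and 6.77. On chr10:79138164-79138836, 673 bases had folds of 5.34, 6.97 and 3.63. Of the 133 regions, 17 (12.8%, Wilson 95% interval 8.14 to 19.5) were called as more than 1 peak in some library, a share near the 11.8% of the rest of the chromosome.

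Heights repeated between libraries more closely than folds. The median coefficient of variation over the 133 regions was 9.35% for the pileup, 19.1% for the background and 18.3% for the fold. In the regions with the widest spread of the fold, the backgrounds of the libraries differed more than the pileups. On chr10:79100102-79100327 the pileups were 34, 33 and 30 tags, while the backgrounds were 1.05, 5.60 and 5.28 tags and the folds 17.05, 5.15 and 4.93. On chr10:79706436-79706547 the pileups were 26, 22 and 23 tags, the backgrounds 1.11, 3.36 and 7.04, and the folds 12.8, 5.27 and 2.98. The next, chr10:79695330-79695770, had 32, 31 and 26 tags and folds of 8.14, 2.89 and 5.97 over 3.05, 10.1 and 3.52 tags. In each of these 3 the pileups of the libraries lay close together and the backgrounds did not. The steadiest folds after the longest region were on chr10:80253698-80254120, at 4.47, 4.39 and 4.60, and on chr10:79869298-79869430, at 6.73, 6.34 and 6.72.

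Rank agreement of the fold between libraries was higher in the interval than on the rest of the chromosome. Across the 133 regions, Spearman's rho of the fold was 0.768 ± 0.0076 (SD, n = 3 pairs of libraries), and across the 619 of the rest it was 0.605 ± 0.0124. For the pileup the values were 0.947 ± 0.0042 and 0.941 ± 0.0031, and for the background 0.911 ± 0.0083 and 0.882 ± 0.0063. These are descriptions across regions, which share a library and its depth, and the pairs share libraries. Folds also varied less within a region, with the median coefficient of 18.3% standing against 21.4% on the rest. The regions of the interval were also taller, with a median of their mean pileups of 29.3 tags against 23.3. Their median background was 4.73 tags against 3.75. Neither agreement nor variation was compared at equal height or input.

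The libraries tended towards an order within the regions, which many regions did not follow. It was counted here for the interval only. m6A IP 2 alone had the highest pileup in 72 of the 133 regions and m6A IP 3 in 5, and m6A IP 3 alone had the lowest in 75. By fold, m6A IP 3 was alone the lowest in 71 regions, while m6A IP 1 and 2 were alone the highest in 56 and 62. The median fold of m6A IP 3 over the regions was 4.52, against 5.14 and 5.19 in m6A IP 1 and 2. m6A IP 3 alone had the highest background in 66 regions, with medians of 4.58, 4.73 and 5.28 tags in libraries 1, 2 and 3.

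Summits lay close together in most regions, but not in all. In the 116 regions with 1 peak in each library, the 3 summits spanned a median of 17.5 bases (quartiles 6.75 and 61.2), and in 60.3% they lay within 25 bases of each other. On the rest of the chromosome the median was 21 bases over 546 regions (quartiles 6 and 43), with 56.2% within 25 bases. The median span was thus a little shorter in the interval, but the upper quartile was longer. In most regions of the interval the span was thus shorter than the 50 bases to which a tag was extended.

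Peaks found in a single library were lower and shorter than recurrent ones. In the interval their median pileup was 16.5, 18 and 15 tags in libraries 1, 2 and 3, against 29, 31 and 26 for peaks of regions found in all 3, and their median length 66.5, 63 and 57 bases against 156, 162 and 117. On the rest of the chromosome both kinds were lower, with 10, 11 and 9 tags for single-library peaks and 24, 24 and 21 for recurrent ones. The 3 highest single-library peaks of the interval were all from m6A IP 2: chr10:80642325-80642445 with 47 tags and a fold of 2.15, chr10:79593434-79593496 with 44 tags and 2.07, and chr10:80291238-80291328 with 44 tags and 2.24. Their backgrounds were 21.3, 20.7 and 19.1 tags. All 3 lay over high input, and the input of m6A IP 2 had the most tags of the 3 inputs. The part of either in these calls was not tested.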

How the data were processed

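Polyadenylated RNA of whole mouse brain was immunoprecipitated with an m6A antibody or kept as input. The submitters' processing notes name mm9, MACS2 2.1.0 and TopHat2 2.1.0. Per the file headers, MACS 2.1.0.20151222 called peaks per replicate at a q-value cutoff of 0.05, with tags extended to 50 bases, 1 tag kept per position and the larger library scaled to the smaller. The pileup is a coverage signal deposited by the authors. The fold enrichment is the authors' ratio, and the authors deposited a −log10 q-value and a −log10 p-value for the strength of each peak. Other deposited columns were positions and lengths.

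Background was recovered as (pileup + 1) / fold - 1 and divided by the input scaling. Within 0.01, it came to whole input tags for 66.5%, 66.9% and 65.9% of interval peaks in m6A IP 1, 2 and 3, and only these entered comparisons at equal input tags, in classes of at least 5 peaks. A region's pileup, fold and background are each the highest among its peaks in a library and can come from different peaks. Interval and rest were paired by library, because both values come from 1 list.

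Named regions were those highest in pileup, length, fold or spread of fold, lowest in fold or spread of fold, and highest in pileup among single-library regions. Named clusters, empty stretches and 100 kb windows were taken at the ends of their counts or sizes. The members, measures and alternatives were chosen with earlier results of these data known. Pileup classes, the split into the first and second Mb, flanks and 2 Mb windows were added after seeing the data. Merging was run on simulated lists of 251 sites kept apart from each other, with 1 peak of fixed length per library. It returned all 251, but this could not test close neighbours or split peaks. Chromosome lengths of mm9 came from GenomeInfoDb 1.38.1 under R 4.3.3, and the rest ran in Python 3.11.15 with scipy 1.17.1, pandas 2.3.3, numpy 2.4.6 and matplotlib 3.10.9.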

Additional observations from a re-analysis of the deposited data

How the results depend on the processing

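Counts of recurrent regions depended on the threshold. With a fold of at least 4, the interval held 66 regions found in all 3 libraries, 32.4% of its regions, with a median gap of 18846 bases. At −log10 q values of 10 or more it held 24, 24.5%, with a gap of 51901 bases and 16.7% of them within 1000 bases of another. A reciprocal overlap of 50% gave 29.9%, and 2 libraries in place of 3 gave 64.7% and a gap of 4378 bases. Leaving out 1 library gave 52.4% to 61.9%, where a region had to be found in both of the remaining libraries. These shares of regions are for the interval alone, and none is given for the rest of the chromosome under the same settings. The share of peaks in regions of all 3 libraries was compared with the rest under the 2 thresholds. The interval was higher by 10.04 percentage points under the fold threshold and by 11.6 under the q threshold (means of 3 libraries). The density ratio of 12.4 was 11.4 with a fold of at least 4, 17.8 with a −log10 q of at least 10, 13.3 with the left-out stretch put back and 9.74 against the rest of the autosomes and X.

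Differences in pileup, background, length, recurrence and fold at equal input tags kept the direction of their mean under every alternative run. For recurrence this held in sign only: within classes of pileup its mean was 0.76 ± 1.38 points (SD, n = 3), with m6A IP 2 at -0.82. The lower median fold did not keep its direction. It was 0.14 higher than the rest with a fold of at least 4, where the threshold itself narrows the values compared, and 0.29 higher in the first Mb alone. Without the pairing (no replicate block) the differences were the same by construction (for example 7.33 tags of pileup and 8.23 points of recurrence), and the exact permutation p was 0.1 for pileup, background and fold at equal input tags, the smallest that 3 values against 3 allow, 0.3 for length and fold and 0.5 for recurrence. Of the 22 regions of all 3 libraries named by rule, 11 still overlapped one with a fold of at least 4, 5 with a −log10 q of at least 10 and 19 with lists of equal length. The fold threshold drops by definition any region whose fold was under 4 in a library, among them those named for low fold. The lists hold called peaks only, so depth limits what can be said of the empty stretches.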
